A study of Mus musculus with 24 samples.

Results

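The interferon-stimulated genes described here are 40 genes whose transcripts are induced when interferon binds its receptor. They were found in the deposited table by exact match of the gene symbol, and all 40 were among the 45706 genes listed. Each of them also passed the filter on low counts in every comparison, so none was left out. The values come from bulk RNAseq of the whole olfactory epithelium (OE), the nasal lining that holds the olfactory sensory neurons (OSNs), with 1 library per mouse.

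The study compared *WT* mice with untreated *iRhom2-/-* mice, which carry the KOMP tm1b allele of *Rhbdf2*, the gene for iRhom2, with LacZ under the *iRhom2* promoter, as a deletion present throughout the animal. The methods give a mixed 129Sv and C57BL/6 background for the *iRhom2-/-* line, and the labels call the strain of both genotypes mixed without naming its parts. There were 3 *WT* and 3 *iRhom2-/-* mice at 8 weeks, the same numbers at 10 weeks, and 6 of each genotype from 5 and 30 weeks, whose 12 columns give the genotype but neither the age nor the mouse. These last mice are called columns 7 to 12 of each genotype, and the 5 and 30 week mice are treated as 1 set in which ages cannot be told apart. Mouse 3 of each genotype at 10 weeks and *WT* mouse 3 at 8 weeks were labelled female. Each set carried its own core reference number in the labels, so age and whatever that number marks cannot be told apart, and genotypes were compared within a set or with the set as a term.

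Library totals ran from 25333822 to 48660394 counts, with a median of 34233812. *Rhbdf2* was detected in every library, at 19.3 to 25.0 counts per 1e+06 library counts (CPM) in the 12 *WT* mice and 7.19 to 13.4 CPM in the 12 *iRhom2-/-* mice, so the genotypes did not overlap for the targeted gene. The library labelled as *WT* mouse 3 of 8 weeks had *Xist* at 0.219 CPM, whereas the *WT* and *iRhom2-/-* mice labelled female at 10 weeks had 204 and 286 CPM, and thus went against its label for sex. *iRhom2-/-* mouse 2 of 10 weeks stood apart with a TMM scaling factor of 0.785 and a summed level of 71858 CPM for 8 markers of sustentacular and gland cells, against 4513 to 33397 CPM in the other mice. The marker of mature OSNs, *Omp*, lay between 3692 and 8336 CPM in all 24 mice. At 8 weeks the summed levels of some cell type markers differed between genotypes. The sum of 10 markers of mature OSNs was 9673 to 12187 CPM in *WT* and 14412 to 18238 CPM in *iRhom2-/-* mice. For the sustentacular and gland markers it was 12287 to 33397 and 5863 to 9151 CPM. However, 5 of these 8 markers had a log2 fold change above 0 (median over the list 0.051), and *Bpifb9a* fell (-4.35, edgeR adjusted p = 0.0328).

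Interferons are secreted proteins that act through receptors and the JAK kinases. Type I and type III interferons lead to a complex with Stat2 and Irf9, which binds an element with the core GAAA, any 2 bases, GAAA, and interferon gamma, made mainly by T cells and natural killer (NK) cells, acts through sites with the core TTCNNNGAA. The genes induced in this way sense foreign nucleic acid, degrade it, block viral translation, assembly and release, or cut and carry peptides for presentation on MHC class I. In the OE they are known as part of the response of the nasal lining to respiratory viruses.

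The members lie on 16 chromosomes, with 6 on chromosome 11 (*Irgm1*, *Irf1*, *Igtp*, *Xaf1*, *Dhx58* and *Ifi35*), 5 in the *Oas* group on chromosome 5 and 4 on each of chromosomes 3 and 16. *Rhbdf2* itself is on chromosome 11 from 116598165 to 116627019 (GRCm38), and the nearest member, *Ifi35*, ends 15.1 Mb away. Promoter sequences of RefSeq (GRCm38.p6) were matched for 30 of the 40 members, and not for *Zbp1*, *Dhx58*, *Oas2*, *Mx1*, *Mx2*, *Usp18*, *Iigp1*, *Rtp4*, *Parp14* and *Ifi27*. In the 250 bases before a listed start site, on either strand, the first core was found for 15 of these 30, against 936 of 27025 genes (3.46%), and TTCNNNGAA for 7 of the 30 (23.3%), against 8.13% of all. The first core was held by 5 of the 5 matched interferon-induced GTPases and by 0 of the 3 matched genes of antigen processing. These matches are of letters only.

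Printed next are 120 bases of 6 promoters, each read 5′ to 3′ on the strand of the gene and ending before the annotated start, with the first core, read on either strand, in capitals (matches can overlap). *Gbp3* (plus strand, chr3:142559906-142560025), *Gbp7* (plus strand, chr3:142530216-142530335) and *Igtp* (plus strand, chr11:58199436-58199555) are shown because the GTPases were the role with the highest ratio of 1 *WT* mouse to its group, *Isg15* (minus strand, chr4:156200819-156200938) as the gene that names the group, and *Ifit1* (plus strand, chr19:34640751-34640870) because it holds the core 2 times and had opposite signs at 8 and 10 weeks. *Cmpk2* (plus strand, chr12:26469084-26469203), which rose at 8 weeks, has no match in its window.
Gbp3: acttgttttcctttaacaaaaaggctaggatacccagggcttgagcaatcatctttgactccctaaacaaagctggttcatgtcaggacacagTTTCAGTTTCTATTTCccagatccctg
Gbp7: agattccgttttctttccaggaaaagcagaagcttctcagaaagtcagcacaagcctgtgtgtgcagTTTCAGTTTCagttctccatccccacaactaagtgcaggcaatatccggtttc
Igtp: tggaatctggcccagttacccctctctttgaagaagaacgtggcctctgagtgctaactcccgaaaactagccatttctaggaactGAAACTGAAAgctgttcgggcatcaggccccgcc
Isg15: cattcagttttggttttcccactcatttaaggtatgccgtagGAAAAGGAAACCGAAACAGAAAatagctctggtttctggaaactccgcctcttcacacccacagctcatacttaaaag
Ifit1: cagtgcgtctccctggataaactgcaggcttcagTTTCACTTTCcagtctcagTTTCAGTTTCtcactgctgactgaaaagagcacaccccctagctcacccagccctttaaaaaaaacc
Cmpk2: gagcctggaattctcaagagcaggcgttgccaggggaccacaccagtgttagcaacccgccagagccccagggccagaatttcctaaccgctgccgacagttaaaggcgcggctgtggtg

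The summed level of the 40 members separated single mice more than genotypes. At 8 weeks it was 1432, 530.3 and 558.8 CPM in *WT* mice 1 to 3 and 556.0, 507.5 and 673.9 CPM in the *iRhom2-/-* mice, so that *WT* mouse 1 stood far above the other 5, which overlapped. At 10 weeks the *WT* mice had 613.4, 514.1 and 507.0 CPM and the *iRhom2-/-* mice 482.1, 586.4 and 489.7 CPM, again with overlap. *WT* columns 7 to 12 had 981.2, 892.3, 614.1, 537.0, 547.4 and 657.7 CPM. The *iRhom2-/-* columns 7 to 12 fell into a higher and a lower trio, with 647.8, 634.5 and 628.5 CPM in columns 7 to 9 and 424.2, 397.1 and 406.6 CPM in columns 10 to 12. Thus 3 *WT* mice (mouse 1 of 8 weeks and columns 7 and 8) lay above the other 21 mice, whose sums ran from 397.1 to 673.9 CPM. For 35 of the 40 members the highest of all 24 values belonged to 1 of these 3 mice, and for 25 the lowest belonged to *iRhom2-/-* column 10, 11 or 12.

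**Figure D1:**
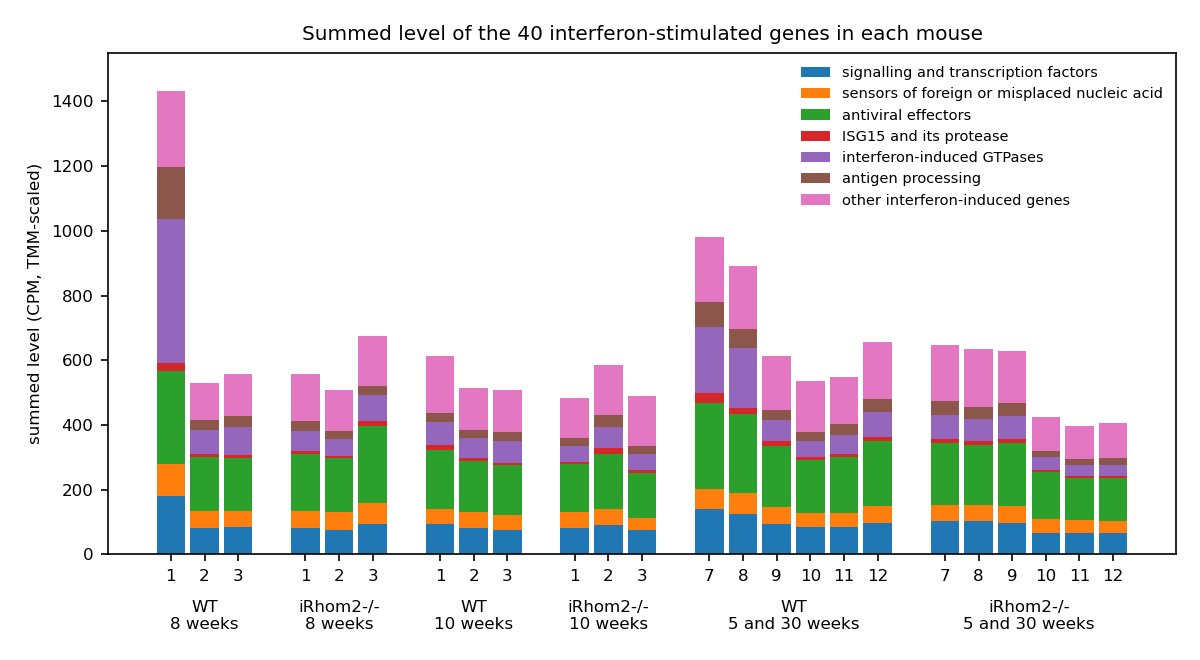
Summed level of the 40 interferon-stimulated genes in each of 24 mice, in TMM-scaled CPM, as bars stacked by the role of the genes; the number under a bar is the mouse (8 and 10 weeks) or the column (5 and 30 weeks). *WT* mouse 1 of 8 weeks reached 1432 CPM and *WT* columns 7 and 8 reached 981.2 and 892.3 CPM, above the other 21 mice.

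Over all 24 mice, with the set as a term, 38 of the 40 members had a log2 fold change, or log2 difference, below 0 (*iRhom2-/-* minus *WT*), against 50.3% of the 20763 genes tested. Their median was -0.48, within a range of -1.41 to 0.16, and the median of all genes was near 0. An unadjusted p under 0.05 in the lower direction was reached by 21 members (52.5%), where 6.13% of all genes reached it. No member passed an adjusted p of 0.1 with edgeR's quasi-likelihood test and Benjamini-Hochberg adjustment, a threshold that 1.97% of all genes passed, and the smallest adjusted p of a member was 0.112. DESeq2 passed 8 members, all lower, and 3.97% of all genes, and edgeR's likelihood ratio test passed 7 members, all lower, and 2.6% of all genes. Without the 3 *WT* mice named above the median was -0.086 and 30 members were below 0. In that fit 2 members (*Apobec3* and *Irgm1*, both lower) had an unadjusted p under 0.05. The nearest shares of all genes at hand, 50.3% below 0 and 6.13% with that p in the lower direction, are from the fit with every mouse. Mice were left out here after their levels had been seen.

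The 6 interferon-induced GTPases, from families that act against intracellular pathogens, had the lowest median of any role over 24 mice, -1.02 on the log2 scale. All 6 had an unadjusted p under 0.05 in the lower direction, against 6.13% of all genes. Without the 3 *WT* mice with the highest summed level, *Irgm1* alone among them had an unadjusted p under 0.05. *Gbp3* ranged from 4.81 to 37.8 CPM in *WT* mice (median 7.08) and from 3.36 to 9.68 CPM in *iRhom2-/-* mice (median 4.71). The highest 3 values belonged to *WT* mouse 1 of 8 weeks (37.8 CPM) and *WT* columns 7 and 8 (24.8 and 20.7 CPM), and the remaining mice overlapped. Its log2 difference was -1.01 ± 0.30 SE (edgeR adjusted p = 0.112), and -0.72 without *WT* mouse 1 of 8 weeks. Without all 3 of these *WT* mice it was weaker still, since the lowest value of any member was then -0.58. *Irgm1*, an immunity-related GTPase that controls autophagy, had a log2 difference of -0.64 ± 0.19 SE (edgeR adjusted p = 0.113), with 22.9 to 92.6 CPM in *WT* mice (median 28.0) and 13.5 to 30.8 CPM in *iRhom2-/-* mice (median 23.4). For *Gbp2*, another guanylate-binding protein, the *WT* mice spanned 5.51 to 81.5 CPM (median 10.5) and the *iRhom2-/-* mice 4.43 to 12.7 CPM (median 9.23), a log2 difference of -1.21 ± 0.38 SE (edgeR adjusted p = 0.134). In all these cases the medians of the genotypes lay much closer than their upper ends.

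At 8 weeks 36 members were below 0, against 50.2% of the 19335 genes tested, with a median of -0.59. This rested on *WT* mouse 1, since without it 17 members were below 0 and the median was 0.067. All 40 members except *Ifit2* had their highest *WT* value in this mouse, and 28 had their highest value of all 24 mice there. Its ratio to the median of the 3 *WT* mice had a median of 2.68 over the members, from 0.98 for *Ifit2* to 9.37 for *Iigp1*. By role, the median ratio was 5.10 for the GTPases, 4.51 for antigen processing, 2.58 for the antiviral effectors, 2.25 for the sensors and 2.00 for the signalling genes.

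*Iigp1*, a GTPase that strips parasite vacuoles, was at 141, 12.2 and 15.01 CPM in the *WT* mice of 8 weeks and at 9.13, 5.06 and 10.6 CPM in the *iRhom2-/-* mice. The groups did not overlap, but *WT* mouse 1 alone was 9.37 times the *WT* median. Its log2 difference was -2.79 ± 0.96 SE (edgeR adjusted p = 0.177), and without *WT* mouse 1 it was -0.73. The genes of antigen processing followed the same mouse, with *Tap1*, which pumps peptides into the endoplasmic reticulum, at 68.6 CPM in *WT* mouse 1 against 9.78 to 15.2 CPM in the other 5 mice of 8 weeks. *Psmb8* and *Psmb9*, subunits of the immunoproteasome, were at 62.1 and 30.3 CPM in that mouse and at most 13.9 and 7.18 CPM in the others.

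Only *Apobec3* and *Cmpk2* passed an adjusted p of 0.1 at 8 weeks, 2 of 40 (5%) against 4.98% of all genes, so members were called about as often as other genes. An unadjusted p under 0.05 in the lower direction was reached by 8 members (20%) against 9.02% of all genes. Without *WT* mouse 1 it was reached by 3 members in the lower direction (*Irf1*, *Apobec3* and *Iigp1*), against 8.43% of all genes. In the higher direction it was reached by 4 (*Ifit1*, *Oasl1*, *Cmpk2* and *Parp14*), for which no share of all genes was computed. All genes leaned upward at 8 weeks, with 626 called higher and 336 lower in the fit with every mouse, so these 4 are not set apart from other genes. Of the markers of mature OSNs, 9 of 10 were above 0 in this set (median 0.51) and 4 rose (*Ric8b*, *Ano2*, *Cnga2* and *Cnga4*), and of the 8 sustentacular and gland markers 5 were above 0 and *Bpifb9a* fell. Their part in the values of the members was not tested. In 5 members (*Irf1*, *Oas3*, *Apobec3*, *Iigp1* and *Tap1*) every *iRhom2-/-* mouse was lower than every *WT* mouse, which held for 10.6% of all genes, and in 1 (*Cmpk2*) every one was higher, which held for 16.1%.

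*Cmpk2*, a mitochondrial nucleotide kinase next to *Rsad2* on chromosome 12, rose in the *iRhom2-/-* mice of 8 weeks. It was at 46.5, 43.8 and 44.7 CPM in *WT* mice and 53.7, 56.3 and 60.0 CPM in *iRhom2-/-* mice, and the log2 difference was 0.31 ± 0.062 SE (edgeR adjusted p = 0.0599). Leaving out each mouse in turn ended the call in 4 of 6 fits, with values of 0.27 to 0.34. Its neighbour *Rsad2*, the antiviral enzyme viperin, gave 7.17, 6.04 and 3.14 CPM in *WT* and 4.75, 6.39 and 5.37 CPM in *iRhom2-/-* mice of 8 weeks, with the *iRhom2-/-* mice inside the *WT* range. *Ifit1*, which binds viral RNA caps, was at 36.1, 26.7 and 22.4 CPM in *WT* and 35.3, 32.3 and 58.3 CPM in *iRhom2-/-* mice, a log2 difference of 0.54 ± 0.26 SE (edgeR adjusted p = 0.296). *Isg15*, the ubiquitin-like modifier, was at 10.3, 4.49 and 3.90 CPM in *WT* and 5.04, 4.89 and 7.51 CPM in *iRhom2-/-* mice. Its log2 difference of -0.12 ± 0.39 SE (edgeR adjusted p = 0.89) became 0.45 without *WT* mouse 1.

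**Figure D2:**
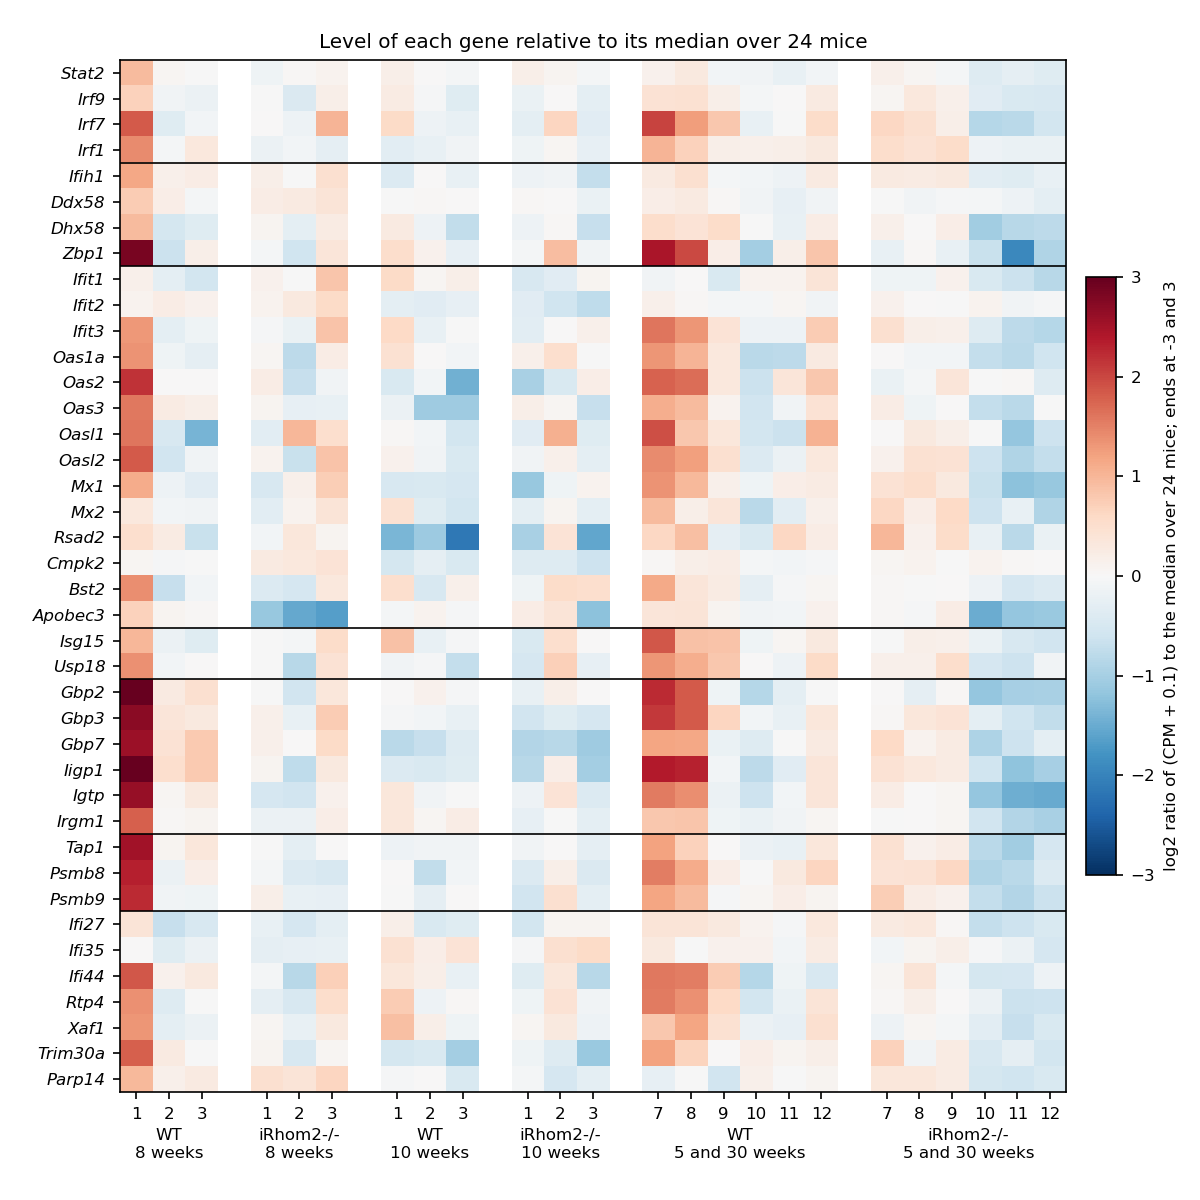
Level of each of the 40 members in each of 24 mice, as the log2 ratio of (CPM + 0.1) to the median of that gene over all mice, with red above and blue below the median and black lines between roles. The columns of *WT* mouse 1 of 8 weeks and *WT* columns 7 and 8 are red over most rows, *iRhom2-/-* columns 10 to 12 are blue over most rows, and *Ifit2* and *Cmpk2* do not follow these columns.

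At 10 weeks, where no mouse stood so far apart in its sum, the members lay around 0. A log2 fold change below 0 was found for 23 of 40 (48.6% of the 18764 genes tested), with a median of -0.036. None passed an adjusted p of 0.1 (0.197% of all genes), and 2, *Irgm1* and *Ifit1*, had an unadjusted p under 0.05 in the lower direction, or 5% against 3.82%. DESeq2 called none either. Every *iRhom2-/-* mouse was lower than every *WT* mouse for 3 members (*Gbp3*, *Gbp7* and *Irgm1*), against 6.44% of all genes, and none was higher throughout, against 6.76%. The median moved from -0.22 without *iRhom2-/-* mouse 2, the library that stood apart, to 0.061 without *WT* mouse 1, so its sign rested on single mice.

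*Irgm1* was at 33.8, 27.8 and 30.9 CPM in *WT* mice of 10 weeks and at 22.6, 26.5 and 21.8 CPM in *iRhom2-/-* mice, with a log2 difference of -0.38 ± 0.13 SE (edgeR adjusted p = 0.543). *Ifit1* had 48.6, 34.0 and 36.8 CPM in *WT* and 23.3, 25.8 and 34.7 CPM in *iRhom2-/-* mice, a log2 difference of -0.51 ± 0.19 SE (edgeR adjusted p = 0.571), opposite in sign to its value at 8 weeks. Among the members above 0, *Rsad2* had 1.89, 2.31 and 1.08 CPM in *WT* and 2.54, 6.71 and 1.64 CPM in *iRhom2-/-* mice, and its log2 difference of 1.05 ± 0.54 SE (edgeR adjusted p = 0.737) was 0.23 without *iRhom2-/-* mouse 2. *Oas3*, of the family that makes the activator of RNase L, had 0.963, 0.476 and 0.478 CPM in *WT* and 1.26, 1.15 and 0.651 CPM in *iRhom2-/-* mice, for 0.67 ± 0.44 SE (edgeR adjusted p = 0.801). *Isg15* was at 9.41, 4.31 and 4.96 CPM in *WT* and 3.68, 7.27 and 5.11 CPM in *iRhom2-/-* mice. It gave -0.21 ± 0.36 SE (edgeR adjusted p = 0.94), a value smaller than its error.

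Among the mice of 5 and 30 weeks 37 members were below 0, against 50.3% of the 18481 genes tested, with a median of -0.59. None passed an adjusted p of 0.1 with edgeR's quasi-likelihood test, where 1.07% of all genes did, and 17 (42.5%) had an unadjusted p under 0.05 in the lower direction, against 6.8%. DESeq2 passed 5 members, all lower, where 4.96% of all genes passed, and the likelihood ratio test 1, where 1.61% did. In no member did the genotypes separate, lower or higher, as they did in 0.666% and 0.996% of all genes. Without *WT* columns 7 and 8 the median was -0.18, with 30 members below 0 and 0 with an unadjusted p under 0.05. The shares of all genes given here, 50.3% and 6.8%, are from the fit with every mouse.

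*Zbp1*, a sensor of Z-form nucleic acid, ranged from 0.612 to 7.76 CPM in *WT* columns (median 2.00) and from 0.276 to 1.38 CPM in *iRhom2-/-* columns (median 0.964). *WT* columns 7 and 8 held the 2 highest values (7.76 and 5.54 CPM), and the other 10 mice overlapped. The log2 difference was -1.84 ± 0.56 SE (edgeR adjusted p = 0.18), and -1.38 without *WT* column 7. Without both columns 7 and 8 it was weaker still, since the lowest value of any member was then -0.76. *Xaf1*, a pro-apoptotic interferon-induced gene, was lower by a smaller margin, at 2.47 to 6.85 CPM (median 4.12) against 1.80 to 3.06 CPM (median 2.51), a log2 difference of -0.77 ± 0.25 SE (edgeR adjusted p = 0.206). *Isg15* ranged from 4.66 to 18.7 CPM in *WT* (median 7.80) and from 3.41 to 5.75 CPM in *iRhom2-/-* columns (median 4.74), for -0.93 ± 0.30 SE (edgeR adjusted p = 0.21). Its highest value was again that of *WT* column 7, and the next was 9.42 CPM.

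The *iRhom2-/-* columns also differed among themselves, since columns 10 to 12 were below each of columns 7 to 9 for 34 of the 40 members. *Igtp*, for example, was at 10.4, 8.94 and 9.23 CPM in columns 7 to 9 and at 3.90, 3.14 and 3.01 CPM in columns 10 to 12. *Ifit2* and *Cmpk2* were among the members outside this split. With *Parp14* (0.039) they were also the 3 members with a log2 difference above 0 in this set. *Ifit2* was at 21.2 to 25.5 CPM in *WT* (median 22.7) and 21.4 to 24.9 CPM in *iRhom2-/-* columns (median 22.9), a log2 difference of 0.018 ± 0.066 SE (edgeR adjusted p = 0.937). *Cmpk2* was at 42.7 to 51.9 CPM and 44.8 to 48.2 CPM, for 0.014 ± 0.057 SE (edgeR adjusted p = 0.945).

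**Figure D3:**
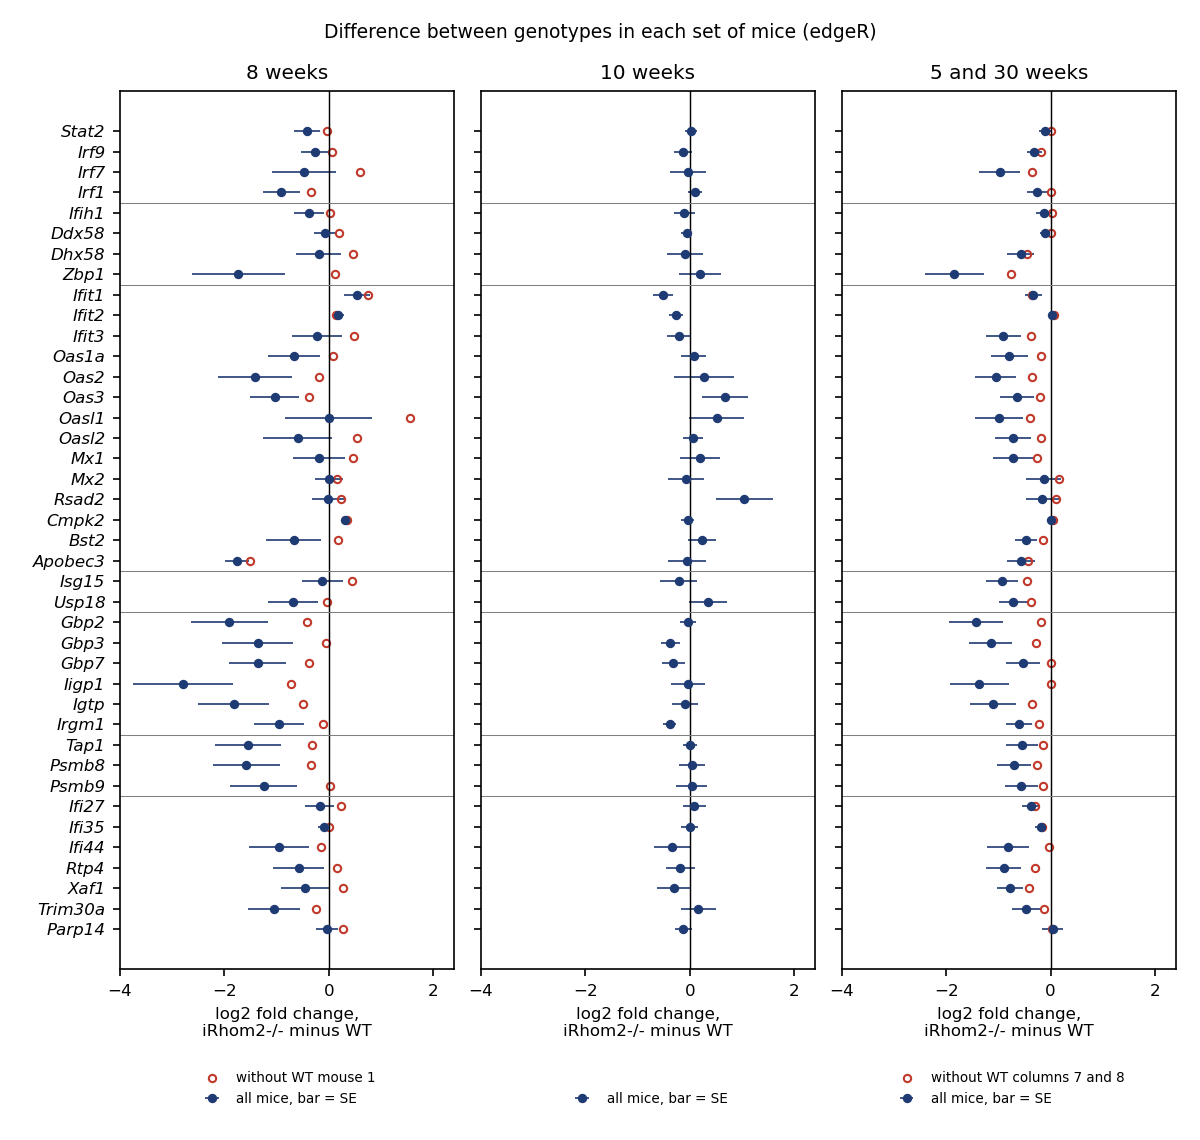
Log2 fold change (*iRhom2-/-* minus *WT*) of each member in the 3 sets of mice, with standard errors as bars from edgeR's fit, and open circles for the fit without *WT* mouse 1 (8 weeks) or without *WT* columns 7 and 8 (5 and 30 weeks). The medians of -0.59 at 8 weeks and -0.59 at 5 and 30 weeks became 0.067 and -0.18 without those mice, and at 10 weeks the median was -0.036.

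Whether the difference between genotypes itself differed between the 3 sets was tested with 2 interaction terms. Of 20763 genes 10 passed (0.0482%), and none of them was a member. An unadjusted p under 0.05 was found for 5 of the 40 members, against 2640 of all 20763 genes, and the smallest adjusted p was that of *Cmpk2* (0.282, edgeR). The differences between sets described above were therefore not shown for any single member.

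Beside the -1.02 of the GTPases, medians over 24 mice were -0.29 for *Stat2*, *Irf9*, *Irf7* and *Irf1*, the transcription factors of the response, -0.27 for the sensors *Ifih1*, *Ddx58*, *Dhx58* and *Zbp1*, -0.36 for 14 antiviral effectors, -0.50 for *Isg15* and its protease *Usp18*, -0.66 for *Tap1*, *Psmb8* and *Psmb9*, and -0.47 for the 7 other members (*Ifi27*, *Ifi35*, *Ifi44*, *Rtp4*, *Xaf1*, *Trim30a* and *Parp14*). *Irf7*, the factor that amplifies type I interferon, was at 23.0 CPM in *WT* mouse 1 of 8 weeks and 26.0 CPM in *WT* column 7, and at 3.44 to 15.3 CPM in the other 22 mice. Of the 14 effectors, 12 were below 0 over 24 mice, with *Oas2* at -0.85 and *Ifit3* at -0.56, whereas *Mx2* had -0.082. *Oas1a*, *Oas3*, *Oasl1*, *Oasl2*, *Mx1* and *Bst2*, the tether of budding virions, lay between -0.55 and -0.35. *Mx2* is annotated as a polymorphic pseudogene, and the *Oas*, *Ifit*, *Gbp* and immunity-related GTPase families hold close copies among which RSEM may split reads, so values of single family members are uncertain to that extent. Scaled for the length of the exons, median levels in *WT* mice ran from 0.174 CPM per kb for *Oas3* to 60.0 CPM per kb for *Ifi27*.

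Of 21 interferon genes in the table, 13 had no count in any library and none passed the filter on low counts. *Ifng*, which encodes interferon gamma, had 62 counts in *WT* mouse 1 of 8 weeks, 21 in *WT* column 7 and 5 in *WT* column 8. These are the 3 mice with the highest summed level of the members, and the other 21 mice had 0 to 3 counts, with 12 of them at 0. *Ifnb1* had 1 count in 1 library. Up to 9 counts in a library was the most for any interferon gene other than *Ifng*, and all of these values carry the counting error of few reads.

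Markers of T and NK cells were high in the same 3 mice. The summed level of 10 such markers was 48.5 CPM in *WT* mouse 1 of 8 weeks, 25.3 CPM in *WT* column 7 and 18.2 CPM in *WT* column 8, against 3.60 to 14.8 CPM in the other 21 mice. By group it was 8.33 to 48.5 CPM in *WT* and 3.60 to 7.42 CPM in *iRhom2-/-* mice of 8 weeks, 6.61 to 10.3 and 5.52 to 14.8 CPM at 10 weeks, and 6.76 to 25.3 and 4.08 to 9.37 CPM at 5 and 30 weeks. All 10 were below 0 over 24 mice (median -1.19), against 50.3% of all genes. An unadjusted p under 0.05 was reached by 9, against 6.13% of all genes in the lower direction, and none passed an adjusted p of 0.1 by edgeR. These markers were not refitted without the 3 mice. At 10 weeks 9 were tested, with 5 below and 4 above 0 (median -0.018). At 8 weeks *Cd8a* (-4.51, edgeR adjusted p = 0.0779) and *Cd3d* (-3.26, edgeR adjusted p = 0.091) fell, where 4.98% of all genes passed. *Cd8a*, the co-receptor of cytotoxic T cells, was at 9.71, 1.05 and 1.46 CPM in *WT* and 0.207, 0.0844 and 0.250 CPM in *iRhom2-/-* mice of 8 weeks, and at 0 in *iRhom2-/-* column 12. The summed level of 6 B and plasma cell markers was 1374 CPM in *WT* mouse 1 of 8 weeks, mostly *Jchain*, and at most 267.3 CPM elsewhere, but it was 20.3 and 31.0 CPM in *WT* columns 7 and 8. Macrophage and myeloid markers were 12 of 12 below 0 over 24 mice (median -0.33), against 50.3% of all genes. Of these, *Aif1* was past the threshold (-0.65 ± 0.17 SE, edgeR adjusted p = 0.0695), as were 1.97% of all genes. Their sum spanned 196 to 693 CPM at 8 weeks. All 12 were below 0 at 8 weeks and at 5 and 30 weeks, whereas 9 were above 0 at 10 weeks (median 0.13). Their highest sum of all mice, 768 CPM, was in *iRhom2-/-* mouse 2 of 10 weeks. The 7 markers of plasmacytoid dendritic cells, a main source of type I interferon, summed to 145 to 351 CPM. This sum was highest in *WT* mouse 1 of 8 weeks, followed by *iRhom2-/-* mouse 2 of 8 weeks (302 CPM) and *WT* column 9 (291 CPM). Over 24 mice 4 of the 7 were below 0 (median -0.34) and none passed, with *Siglech* at -0.89 ± 0.27 SE (edgeR adjusted p = 0.123). *Siglech* was at most 2.38 CPM in any mouse, so the sum came almost wholly from the other markers of the list. The part of these cells in the values of the members was not tested, and in bulk tissue fewer cells of a type and less RNA per cell cannot be told apart.

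**Figure D4:**
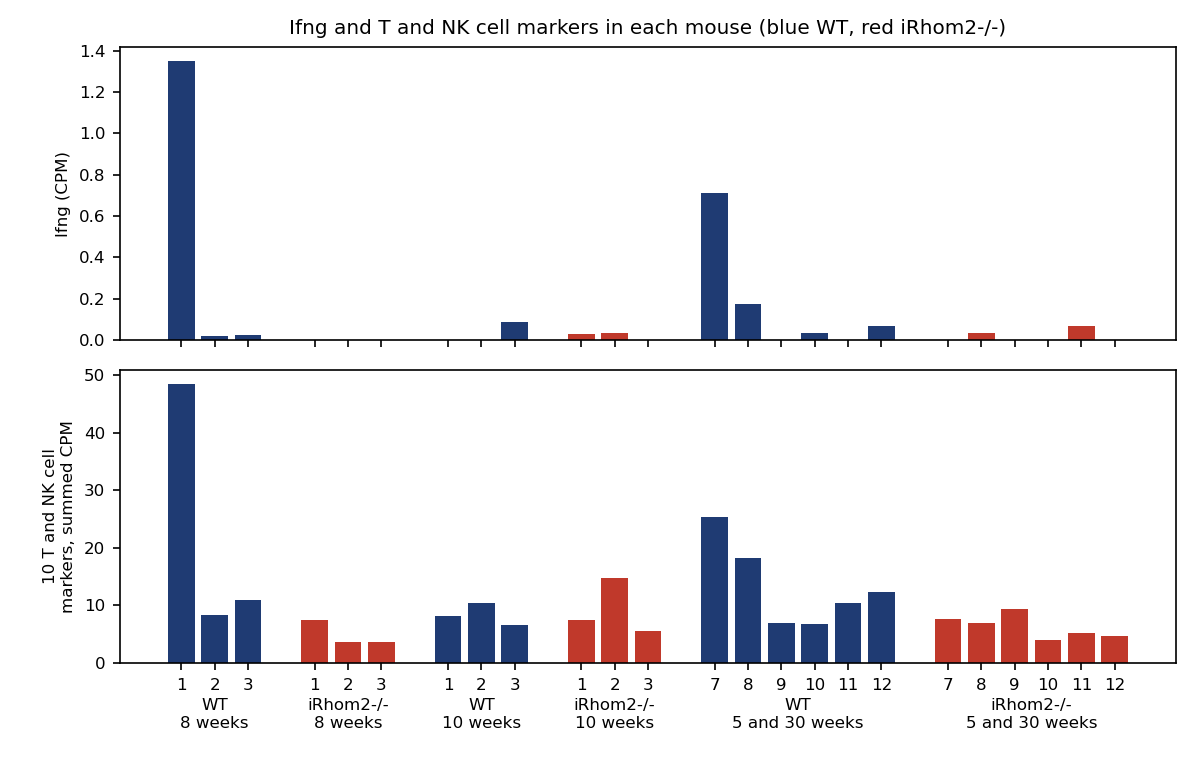
*Ifng* (upper panel, CPM) and the summed CPM of 10 T and NK cell markers (lower panel) in each of 24 mice, *WT* in blue and *iRhom2-/-* in red. *WT* mouse 1 of 8 weeks and *WT* columns 7 and 8 stand highest in both, at 62, 21 and 5 counts of *Ifng* and 48.5, 25.3 and 18.2 CPM of the markers.

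Other genes of the pathway were taken from fixed lists. Of 6 receptor genes, *Ifnlr1*, a subunit of the receptor for type III interferon, rose over 24 mice (0.28 ± 0.075 SE, edgeR adjusted p = 0.065) and no other passed. None of 7 genes of the JAK-STAT arm and none of 9 negative regulators passed edgeR's test in any comparison. Over 24 mice 2 and 0 of them had an unadjusted p under 0.05 in the lower direction, against 6.13% of all genes. Of 13 genes of the sensing and adaptor arm, 11 were below 0 at 8 weeks (median -0.41), against 50.2% of all genes. Of these, 1, *Ikbke*, a kinase that phosphorylates Irf3 and Irf7, fell (-1.20 ± 0.298 SE, edgeR adjusted p = 0.0966), where 4.98% of all genes passed. It was at 4.77 to 8.56 CPM in *WT* and 2.12 to 3.09 CPM in *iRhom2-/-* mice. The arm summed to 267 CPM in *WT* mouse 1 of 8 weeks, 243 and 234 CPM in *WT* mice 2 and 3, and 232 to 244 CPM in *iRhom2-/-* mice. At 10 weeks and at 5 and 30 weeks the medians of the arm were -0.053 and -0.068, and *Ikbke* gave -0.0079 and -0.068.

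*Apobec3*, the cytidine deaminase that restricts retroviruses, was low in some *iRhom2-/-* mice and not in others. It lies on chromosome 15 from 79891659 to 79915906 (GRCm38), and its transcript level is known to differ between inbred mouse strains. At 8 weeks it was at 39.97, 26.4 and 25.3 CPM in *WT* mice and 11.2, 8.54 and 7.76 CPM in *iRhom2-/-* mice, and it fell by 1.75 on the log2 scale, with SE 0.23 and an edgeR adjusted p of 0.0244. Without *WT* mouse 1 it was -1.51 (edgeR adjusted p = 0.012), whereas the other 7 members with an unadjusted p under 0.05 in the lower direction at 8 weeks then lay between -0.73 and -0.32. Leaving out *iRhom2-/-* mouse 2 or 3 ended the call. At 10 weeks the *WT* mice had 23.9, 26.7 and 23.98 CPM, and the *iRhom2-/-* mice had 29.0, 32.3 and 10.5 CPM, so that 2 were above every *WT* mouse and mouse 3 far below. The log2 fold change there was -0.052 ± 0.36 SE (edgeR adjusted p = 0.985).

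Among the mice of 5 and 30 weeks *Apobec3* was at 23.0 to 32.5 CPM in *WT* (median 26.6). In the *iRhom2-/-* mice it was at 25.4, 24.2 and 29.0 CPM in columns 7 to 9 and at 8.82, 11.1 and 11.4 CPM in columns 10 to 12, for a log2 difference of -0.57 ± 0.27 SE (edgeR adjusted p = 0.367). Over all 24 mice it was -0.73 ± 0.23 SE (edgeR adjusted p = 0.137). Thus 7 of 12 *iRhom2-/-* mice, at 7.76 to 11.4 CPM, were below the lowest *WT* mouse (23.0 CPM), and the other 5, at 24.2 to 32.3 CPM, lay within the *WT* range. No *iRhom2-/-* mouse lay between 11.4 and 24.2 CPM.

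Neighbours of *Apobec3* were examined for the same mice. Of 49 other genes tested within 1 Mb of it at 8 weeks, 8 passed an adjusted p of 0.1 (3 lower and 5 higher), where 4.98% of all genes passed, and of 50 tested over 24 mice, 5 passed (2 lower and 3 higher), where 1.97% did. Shares at 8 weeks were larger around *Ifi27* (8 of 33), *Igtp* (11 of 51) and *Rsad2* (1 of 3), and not around the other members. Around *Apobec3* 0 of 46 passed at 10 weeks, and 1 of 48 (*Tomm22*) at 5 and 30 weeks. *Rpl3*, a ribosomal protein gene 162 kb away and chosen after its values were seen, was at 497, 478 and 516 CPM in *WT* and 196, 205 and 205 CPM in *iRhom2-/-* mice of 8 weeks, and fell by 1.32 on the log2 scale, with SE 0.070 and an edgeR adjusted p of 3.83e-04. It gave -0.21 ± 0.28 SE (edgeR adjusted p = 0.915) at 10 weeks and -0.68 ± 0.21 SE (edgeR adjusted p = 0.190) at 5 and 30 weeks. The 7 *iRhom2-/-* mice below every *WT* mouse in *Rpl3*, at 196 to 311 CPM, were the same 7 as for *Apobec3*, and the other 5 had 494 to 727 CPM. *Nptxr*, 86.9 kb from *Apobec3* and also chosen in this way, rose over 24 mice (0.27 ± 0.056 SE, edgeR adjusted p = 0.0158), so the region did not move in 1 direction. Which strain's alleles each mouse carried was not measured, and their part in these values was not tested.

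**Figure D5:**
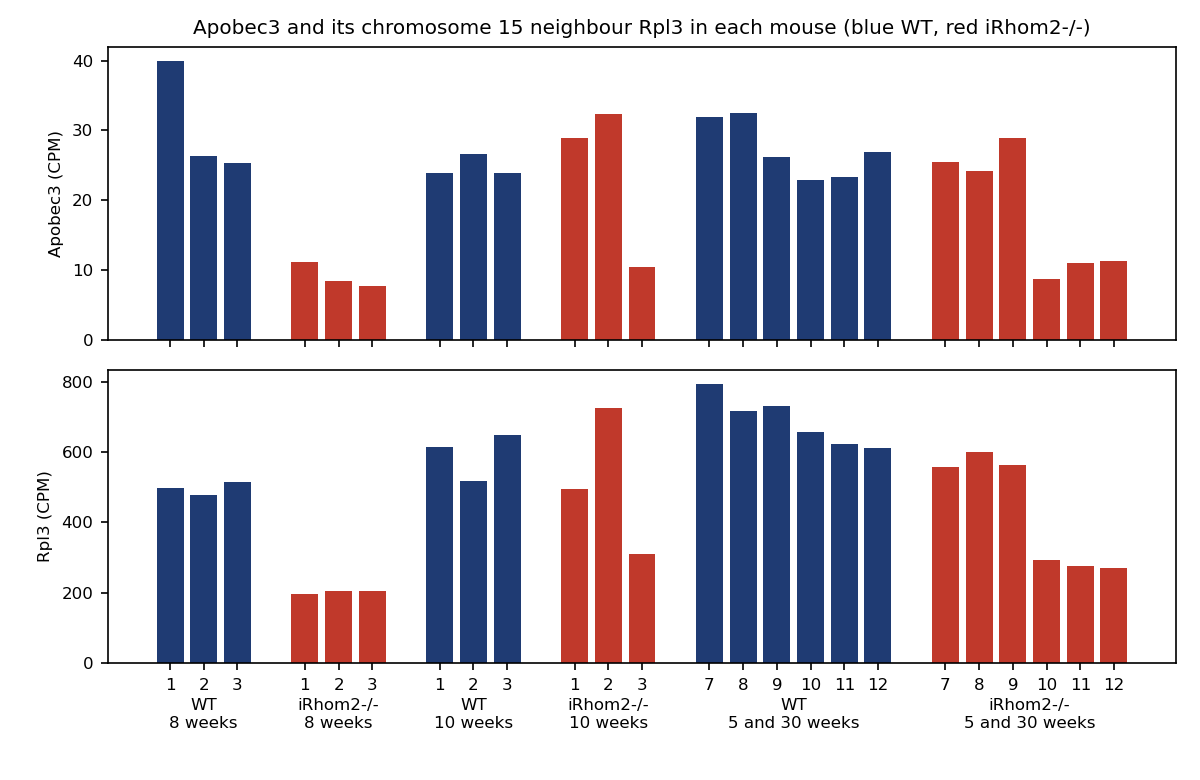
*Apobec3* (upper panel) and *Rpl3* (lower panel) in each of 24 mice, in CPM, *WT* in blue and *iRhom2-/-* in red. The same 7 *iRhom2-/-* mice (3 of 8 weeks, mouse 3 of 10 weeks and columns 10 to 12) are below every *WT* mouse in both genes.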

How the data were processed

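RNA was extracted from the whole OE of both nares, and libraries were made with a strand-specific kit from poly A RNA. The authors ran nf-core, aligned reads with STAR to GRCm38 and estimated counts per gene with RSEM. The deposited table gives the estimated counts rounded to whole numbers and not normalized. The authors' own fold changes, p-values and FDR in that table were not used. Tests used edgeR 4.0.16 under R 4.3.3 (filterByExpr, TMM, quasi-likelihood test, Benjamini-Hochberg over all genes tested, threshold 0.1), per set and over 24 mice with the set as a term. CPM are TMM-scaled. Named are members past the threshold, those with the smallest p in each direction, *Apobec3*, *Isg15* and *Rhbdf2*. The members and lists were chosen with earlier results of these data known. Alternatives were DESeq2 1.42.0, other filters, scalings, thresholds and models, and leaving out mice. Coordinates are from GENCODE. The fits were tested on simulated data. The libraries are separate mice by their labels, and 42 pairs within groups differed well beyond counting noise (lowest chi-square/df 12.8). A count of 3, the limit that a count of 0 allows, was 0.0622 to 0.112 CPM, for counting error only. The values of 1 gene of the signalling pathway are not reported here.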

Additional observations from a re-analysis of the deposited data

Results flagged for a closer look

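Among 44 sets of values from 6 mice of 1 genotype at 5 and 30 weeks, 1 had a sample far from the others, and chance alone gives about 1 in 20. *Isg15* was at 18.7 CPM in *WT* column 7, with the next *WT* column at 9.42 CPM, a gap of 0.661 of the range of the group. The same mouse had the highest *Irf7* of all and 21 counts of *Ifng*. No member had a difference between genotypes that differed between the sets by the interaction test.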

How the results depend on the processing

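The number of members past an adjusted p of 0.1 over 24 mice, 0 with edgeR's quasi-likelihood test, was 2 (*Gbp3* and *Irgm1*) with at least 10 counts in every library, 7 with the likelihood ratio test and 8 with DESeq2, and 0 to 7 when each mouse was left out, with 7 without *iRhom2-/-* mouse 2 of 10 weeks. Of all genes 2.26%, 2.6%, 3.97% and 1.41% to 3.43% were called in these fits, with 3.43% without that mouse. The median of the members over 24 mice was -0.57 to -0.28 without 1 mouse each. At 8 weeks the number called, 2, was 1 at an adjusted p of 0.05 and 1 in mice labelled male, and 0 (without *iRhom2-/-* mouse 2 or 3) to 2 without 1 mouse each (1.4%, 0.667% and 0.344% to 6.57% of all genes), and the median was -0.90 to 0.067. At 10 weeks the median was -0.22 to 0.061 without 1 mouse each, and *Apobec3*, -0.052, was 0.27 in mice labelled male. At 5 and 30 weeks DESeq2 called 5 (4.96% of all genes) and the likelihood ratio test 1 (1.61%), against 0, and the median without 1 mouse each was -0.74 to -0.48. The number with an unadjusted p under 0.05 there, 17, was 3 without *WT* column 7. Log2 fold changes that changed sign when 1 mouse was left out ranged from -0.038 to 0.25 (*Rsad2*, 24 mice), -0.37 to 0.45 (*Isg15*, 8 weeks), -0.35 to 0.30 (*Apobec3*, 10 weeks), -0.51 to 0.20 (*Isg15*, 10 weeks), -0.0039 to 0.047 (*Ifit2*, 5 and 30 weeks) and -0.0063 to 0.047 (*Cmpk2*, 5 and 30 weeks). With fewer mice or genes tested the adjustment also changes, and beyond that the cause was not tested. Of 223 other values of named members, 205 kept their side of the threshold, 15 passed it, 2 lost it and 1 changed sign. Correlations of same-numbered mice at 8 and 10 weeks were 0.0037 to 0.216, against -0.230 to 0.146 for mice of different numbers. With 3 mice per group these cannot decide whether the replicate numbers of the labels paired the samples. With the replicate block the numbers called were 0 over 24 mice, 2 at 8 weeks and 0 at 10 weeks, with medians of -0.44, -0.38 and -0.043. No paired analysis was possible for the mice of 5 and 30 weeks because their columns carry no mouse number.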

Other observations

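Other interferon-induced genes that lie near members passed the test over 24 mice, and they were chosen after their values were seen. *Irgm2*, which overlaps *Igtp* on the same strand so that reads of the 2 genes may be split between them, fell over 24 mice by 1.19 on the log2 scale, with SE 0.33 and an edgeR adjusted p of 0.0859. It was at 73.8 CPM in *WT* mouse 1 of 8 weeks and 26.2 and 26.7 CPM in *WT* columns 7 and 8, and the *iRhom2-/-* mice had 4.00 to 11.9 CPM. *Ifi47*, another immunity-related GTPase, fell by 1.05, with SE 0.29 and an edgeR adjusted p of 0.0783. *Gm12250* fell by 1.75, with SE 0.45 and an edgeR adjusted p of 0.055, with 4.77 CPM in *WT* mouse 1 of 8 weeks and 0.124 to 0.751 CPM in the *iRhom2-/-* mice. Without the 3 *WT* mice with the highest summed level of the members, these values were -0.58 for *Irgm2*, -0.44 for *Ifi47* and -0.54 for *Gm12250*, and none of the 3 passed (adjusted p of 0.335, 0.378 and 0.583, edgeR).

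*Ifi27l2a*, a relative of *Ifi27* on chromosome 12, was at 49.1 to 154 CPM in *WT* and 32.0 to 95.05 CPM in *iRhom2-/-* mice and fell by 0.56 over 24 mice (standard error 0.14, adjusted p = 0.0588, edgeR), and the value was -0.50 without the 3 mice (adjusted p = 0.206, edgeR), no longer past the threshold. Around *Igtp*, 9 of 56 genes tested within 1 Mb passed over 24 mice (4 lower and 5 higher), 16.1% against 1.97% of all genes, and 11 of 51 passed at 8 weeks (4.98% of all genes), 0 of 51 at 10 weeks and 2 of 48 at 5 and 30 weeks. Of the 9, *Irgm2* and *Gm12250* are described above, and 4 are odorant receptor genes or pseudogenes (*Olfr315*, *Olfr319*, *Olfr323* and *Olfr333-ps1*). What these neighbours share other than position was not tested.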
